A study of Saccharomyces cerevisiae with 7 samples.

Results

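The 40 genes described here are budding yeast (Saccharomyces cerevisiae) genes of the Msn2/4 general stress response, taken by their symbols from a list of the response's regulators and targets. All 40 were found among the 5449 S. cerevisiae genes named on the arrays, each by 1 probe set. They comprise 3 regulators, 6 genes of trehalose metabolism, 10 of glycogen and glucose phosphate metabolism, 7 of redox and aldehyde metabolism, 10 for small, membrane and wall proteins, and 4 for other enzymes.

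Msn2 and Msn4 are zinc finger activators that bind stress response elements in promoters. Protein kinase A and TOR signalling keep them in the cytoplasm of growing cells, and heat, osmotic or oxidative stress or loss of glucose brings them into the nucleus. Their targets make and break down the reserve carbohydrates trehalose and glycogen, remove reactive oxygen and aldehydes, and supply small protective proteins. After a heat shift the response is typically transient.

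RNA was measured as biotin-labelled cDNA on 7 one-colour Affymetrix arrays, 1 of wild type cells at 25C and 2 each of wild type, scc2-4 and sth1-3 cells at 37C. Together with Scc4, Scc2 loads the cohesin ring onto DNA, and Sth1 is the catalytic motor of the RSC chromatin remodeller. The cells grew in rich medium with 2% glucose, and those labelled 37C had been moved there for 2 h. The wild type strain YK700 is MATa, GAL and psi+, with the nutritional markers ura3-52, trp1-1, leu2-3, 112, ade2-1 and his3-11,15 and the drug resistance allele can1-100. The scc2-4 strain Y4251 is MATa and also carries Scc1-Pk9::TRP1 and Sth1-9myc::URA3. The sth1-3 strain Y4343 is MATα with the allele written as sth1-3ts and Scc2-Pk9::TRP1. The labels list no other markers for the mutants. Each genotype is 1 strain, no mutant array at 25C was used here, and epitope tags and mating type differ between the strains along with the mutations.

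Signals were low and the arrays differed in a way that did not follow the groups. Background on an array was taken as the 95th percentile of its probe sets for fission yeast, Schizosaccharomyces pombe, which lay at 9.94 to 10.07 (log2 signal), and 8.06% to 12.9% of all S. cerevisiae genes exceeded it. Split at the widest gap in their bacterial hybridisation controls, the arrays formed a 3-array set (wild type 25C and replicate 1 of either mutant, control means 12.25 to 12.53) and a 4-array set (both wild type 37C arrays and replicate 2 of either mutant, 11.52 to 11.72). The correlation over all genes was r = 0.85 to 0.98 within a set and 0.67 to 0.86 between the sets. The closest pair was wild type 37C replicate 1 and scc2-4 replicate 2 (r = 0.98), which carry different labels, while the wild type 37C replicates correlated at 0.92. Of the mating type genes, 0 of 7 a-specific and 1 of 6 alpha-specific genes exceeded background on any array, which leaves little to check the labelled mating types by. The 1 gene, HMLALPHA1, did so only on sth1-3 replicate 1 (10.27), an array of the MATα strain, whose replicate 2 gave 8.41.

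Of the 40 members, 17 (42.5%) exceeded background on at least 1 array, against 22.6% of all genes, and 23 on none. On single arrays the number was 6 to 10. Log2 values below background are given as measured. No fold is given where neither group had an array above background. Where only some arrays of a group were above it, the fold is that of the measured means and the number of such arrays is given. Where 1 of the groups compared had no array above background, a fold is given only as "at least", against the higher of the background and the member's own signal. In bulk RNA, fewer cells expressing a gene and less RNA per cell cannot be told apart.

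**Figure D1:**
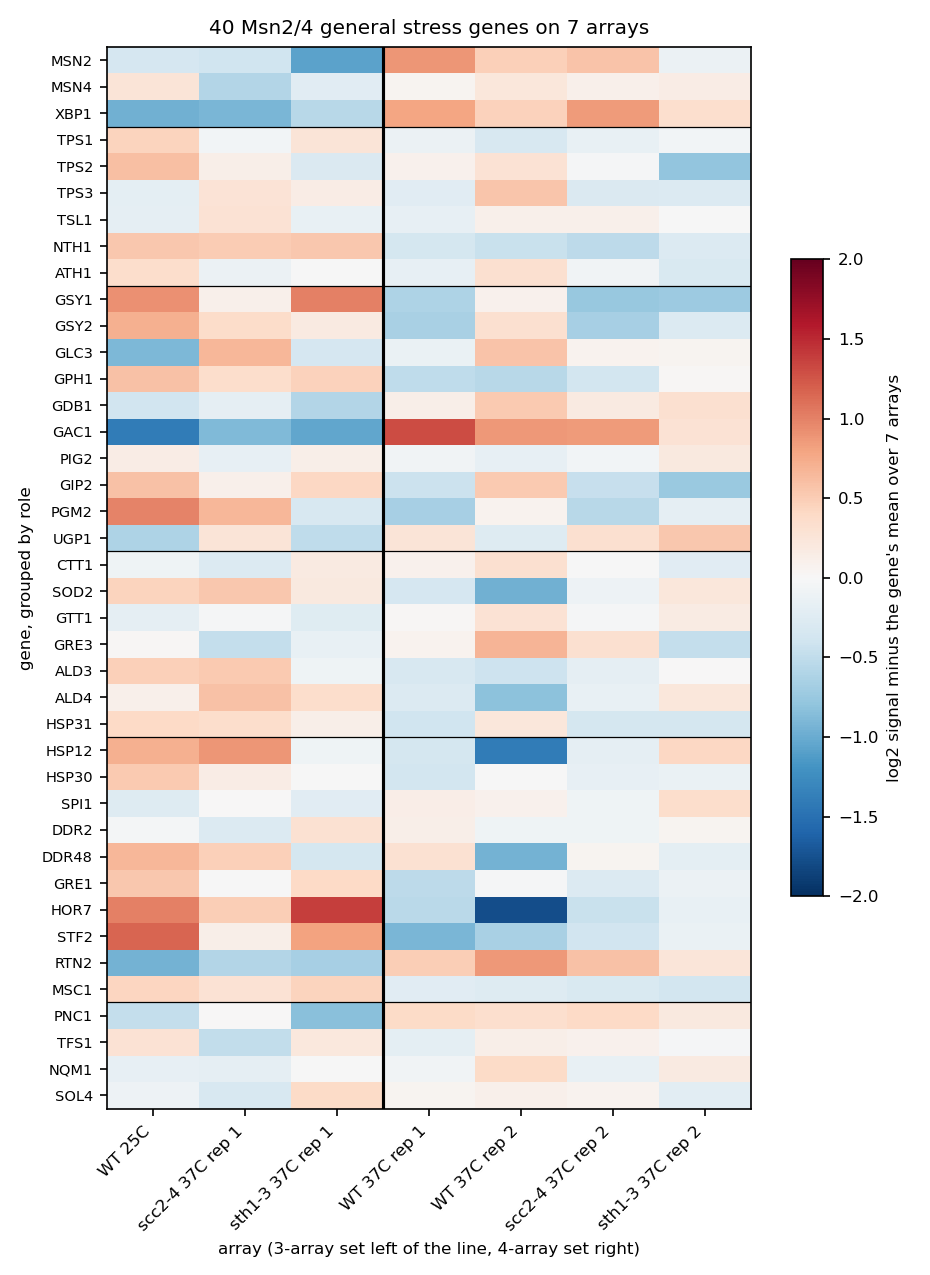
Log2 signal of each of the 40 members minus its own mean over the 7 arrays, in rows grouped by role, with the 3-array set left of the vertical line and the 4-array set right of it. MSN2, XBP1, GAC1 and RTN2 are below their means on all 3 arrays of the left set, and HOR7, STF2 and GSY1 are above theirs.

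Of the regulators, MSN2 and MSN4 did not exceed background on any array. MSN2 measured 8.43 on the wild type 25C array, 9.66 and 9.25 on wild type 37C replicates 1 and 2, 8.38 and 9.34 in scc2-4, and 7.70 and 8.66 in sth1-3. Its signal was lower on every array of the 3-array set than on any of the 4-array set. MSN4 measured 8.63 at 25C, 8.41 and 8.59 in wild type at 37C, 7.79 and 8.47 in scc2-4, and 8.15 and 8.52 in sth1-3, and both mutants overlapped wild type. XBP1 encodes a stress-induced repressor of transcription. It measured 8.19 at 25C, 9.95 and 9.62 in wild type at 37C, 8.24 and 10.01 in scc2-4, and 8.60 and 9.50 in sth1-3, exceeding background only on scc2-4 replicate 2. Both mutants had a low replicate 1 and a high replicate 2, and the 25C array was as low as the former.

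Trehalose is made by Tps1, the trehalose-6-phosphate synthase, and Tps2, the phosphatase, in a complex with the regulatory subunits Tps3 and Tsl1. TSL1 was the only member above background on all 7 arrays. It measured 10.08 at 25C, 10.10 and 10.36 in wild type at 37C, 10.55 and 10.36 in scc2-4, and 10.11 and 10.24 in sth1-3. All 7 values lay within 1 log2 unit. TPS1 measured 10.61 at 25C, 10.06 and 9.86 in wild type at 37C, 10.12 and 10.02 in scc2-4, and 10.43 and 10.11 in sth1-3. The 25C array was the highest for TPS1, and the sth1-3 arrays lay just above both wild type 37C arrays. TPS3 measured 9.37 at 25C, 9.34 and 10.12 in wild type at 37C, 9.84 and 9.28 in scc2-4, and 9.70 and 9.29 in sth1-3, and exceeded background only on wild type 37C replicate 2. TPS2 and the genes of the trehalases that break the sugar down, NTH1 (neutral) and ATH1 (acid), exceeded background on no array. TPS2 lay at 7.85 to 9.24, NTH1 at 8.42 to 9.48 and ATH1 at 6.83 to 7.48. Of these, NTH1 split cleanly by array set, with the 3-array set at 9.44 to 9.48 and the other arrays at 8.42 to 8.67.

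In glycogen metabolism, Gsy1 and Gsy2 are the synthases, Glc3 the branching enzyme, Gph1 the phosphorylase and Gdb1 the debranching enzyme. Gac1, Pig2 and Gip2 are regulatory subunits that direct the protein phosphatase Glc7, Gac1 to glycogen synthase. GAC1 had the widest range of these genes. It measured 7.62 at 25C, 10.32 and 9.89 in wild type at 37C, 8.14 and 9.88 in scc2-4, and 7.99 and 9.31 in sth1-3, exceeding background only on wild type 37C replicate 1. All arrays of the 3-array set were lower for GAC1 than all of the 4-array set, including the mutant arrays at 37C. GSY1 ran the opposite way, at 10.05 at 25C, 8.53 and 9.22 in wild type at 37C, 9.25 and 8.38 in scc2-4, and 10.14 and 8.41 in sth1-3. GDB1 measured 9.54 at 25C, 10.03 and 10.44 in wild type at 37C, 9.74 and 10.09 in scc2-4, and 9.34 and 10.25 in sth1-3, again divided by array set. UGP1, which makes the glucosyl donor UDP-glucose, was the fourth gene of this role above background. It measured 9.34 at 25C, 10.22 and 9.72 in wild type at 37C, 10.23 and 10.29 in scc2-4, and 9.47 and 10.50 in sth1-3, without a split by set. Below background on all arrays were GSY2 (8.16 to 9.53), GLC3 (7.86 to 9.42), GPH1 (6.76 to 7.89), PIG2 (7.90 to 8.25), GIP2 (6.92 to 8.26) and PGM2 (6.81 to 8.46), the phosphoglucomutase gene. GPH1 was higher on each array of the 3-array set than on any other.

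Among redox and aldehyde genes, CTT1, which encodes the cytosolic catalase, did not exceed background. It measured 9.15 at 25C, 9.31 and 9.55 in wild type at 37C, 8.96 and 9.21 in scc2-4, and 9.41 and 9.00 in sth1-3. The scc2-4 arrays lay under both wild type 37C arrays and the sth1-3 arrays overlapped them. SOD2, the gene of the mitochondrial manganese superoxide dismutase, measured 10.07 at 25C, 9.29 and 8.66 in wild type at 37C, 10.16 and 9.53 in scc2-4, and 9.82 and 9.86 in sth1-3. ALD4, for the mitochondrial aldehyde dehydrogenase, measured 10.31 at 25C, 9.94 and 9.39 in wild type at 37C, 10.80 and 10.06 in scc2-4, and 10.56 and 10.44 in sth1-3. For SOD2 and ALD4 the wild type 37C arrays were the 2 lowest of the 7. HSP31, for a methylglyoxal-detoxifying protein, measured 10.23 at 25C, 9.43 and 10.06 in wild type at 37C, 10.19 and 9.47 in scc2-4, and 9.95 and 9.48 in sth1-3, and its groups at 37C overlapped. GTT1 (glutathione transferase, 9.44 to 9.96), GRE3 (aldose reductase, 8.16 to 9.32) and ALD3 (cytosolic aldehyde dehydrogenase, 6.31 to 7.25) exceeded background on no array.

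HSP12 encodes a small membrane-protecting protein that is widely used as a reporter of Msn2/4 activity. It measured 11.57 at 25C, 10.51 and 9.45 in wild type at 37C, 11.74 and 10.68 in scc2-4, and 10.77 and 11.26 in sth1-3, above background on all arrays but wild type 37C replicate 2. The wild type 37C arrays were the 2 lowest. HOR7, for a small membrane protein responsive to hyperosmotic stress, measured 11.77 at 25C, 10.23 and 8.99 in wild type at 37C, 11.25 and 10.32 in scc2-4, and 12.15 and 10.61 in sth1-3. Here too the wild type 37C arrays were lowest and replicate 2 alone was below background. A gap of more than 1 log2 unit between the wild type 37C replicates was seen in 3 members (7.5%, against 3.01% of all genes), each of them lower on replicate 2. These were HSP12 (by -1.06), HOR7 (by -1.24) and DDR48 (by -1.24), a DNA damage-responsive gene at 8.08 to 9.69 that exceeded background on no array.

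The remaining genes of this role had other patterns. RTN2, for a reticulon of the tubular endoplasmic reticulum, measured 9.45 at 25C, 10.88 and 11.26 in wild type at 37C, 9.81 and 10.98 in scc2-4, and 9.72 and 10.63 in sth1-3. It was above background on the 4-array set only. GRE1, for a hydrophilin, measured 10.72 at 25C, 9.65 and 10.15 in wild type at 37C, 10.17 and 9.90 in scc2-4, and 10.58 and 10.05 in sth1-3. DDR2, a multi-stress gene, measured 9.70 at 25C, 9.85 and 9.65 in wild type at 37C, 9.47 and 9.66 in scc2-4, and 10.04 and 9.80 in sth1-3, a range of less than 1 log2 unit. STF2, for another hydrophilin, stayed below background but spread widely. It measured 9.48 at 25C, 7.40 and 7.66 in wild type at 37C, 8.43 and 7.94 in scc2-4, and 9.12 and 8.19 in sth1-3, so that the wild type 37C arrays were again the lowest. HSP30 (a plasma membrane protein that restrains the proton pump Pma1, 7.79 to 8.67), SPI1 (a cell wall protein, 8.54 to 9.16) and MSC1 (6.98 to 7.80) exceeded background on no array.

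PNC1 encodes the nicotinamidase, which feeds NAD salvage. It measured 9.32 at 25C, 10.16 and 10.12 in wild type at 37C, 9.80 and 10.18 in scc2-4, and 8.95 and 9.98 in sth1-3, lower throughout the 3-array set than in the 4-array set. TFS1 (an inhibitor of carboxypeptidase Y, 8.86 to 9.63), NQM1 (a transaldolase, 9.20 to 9.77) and SOL4 (a 6-phosphogluconolactonase, 8.99 to 9.69) exceeded background on no array.

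**Figure D2:**
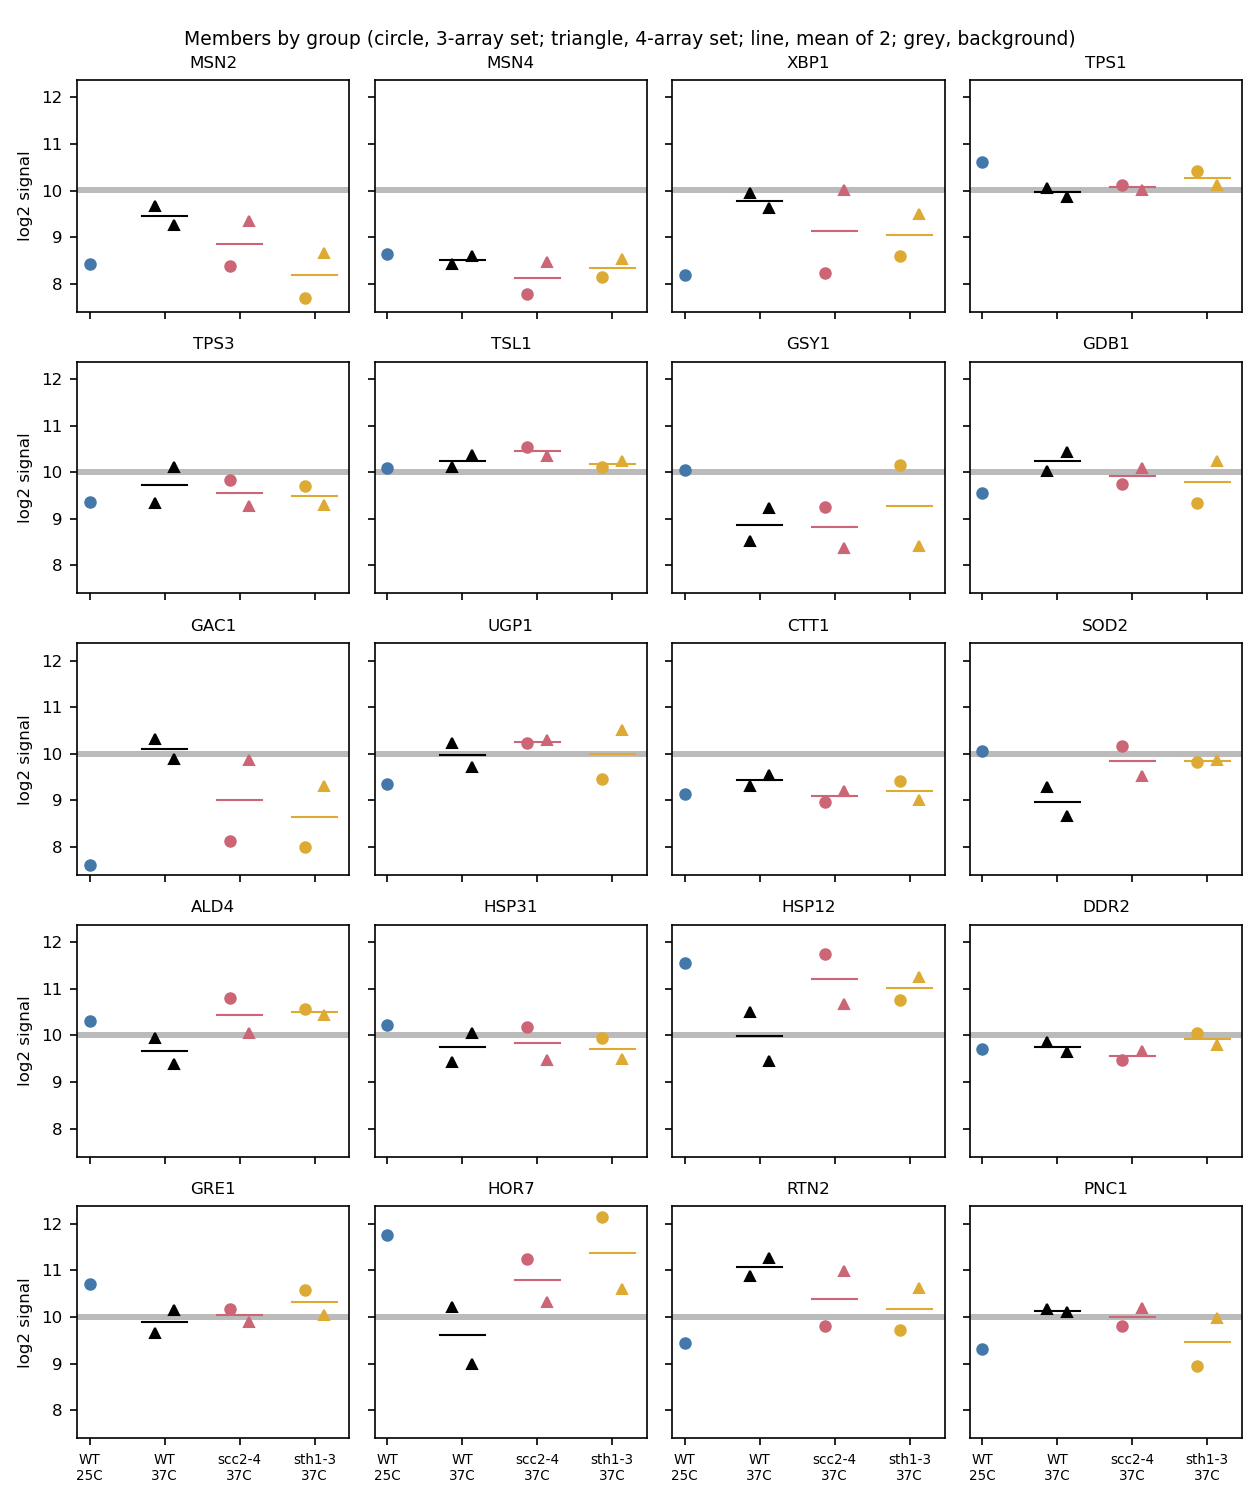
Log2 signal of the 17 members above background on at least 1 array and of MSN2, MSN4 and CTT1, by group, with 1 point per array (circles for the 3-array set, triangles for the 4-array set), lines for the mean of 2 arrays and a grey band for the background levels of the 7 arrays. The wild type 37C arrays are the 2 lowest for HSP12, HOR7, SOD2 and ALD4, and circles lie below triangles at 37C for MSN2, XBP1, GAC1, RTN2 and PNC1.

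The array sets divided many members completely. All arrays of the 3-array set exceeded all of the 4-array set in 8 members (20%), against 21.6% of all genes. These were TPS1, NTH1, GSY1, GPH1, GRE1, HOR7, STF2 and MSC1. In 6 members (15%), against 14% of all genes, they were all lower, namely MSN2, XBP1, GDB1, GAC1, RTN2 and PNC1. The shares are close to those of all genes. The largest mean differences between the sets were -1.93 for GAC1 and 1.69 for HOR7 (log2). The correlation over the 40 members was 0.81 to 0.99 within a set and 0.51 to 0.88 between the sets. It runs across genes, which are not independent replicates.

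The first comparison asks what the temperature shift did in wild type cells. HSP12, HOR7 and STF2 were lower at 37C than at 25C, while GAC1, RTN2 and XBP1 were higher. None of these differences passed the test. HOR7 averaged 9.61 ± 0.87 (SD, n = 2) at 37C against 11.77 on the single 25C array, a 4.47-fold lower signal (log2 difference -2.16, standard error 0.75). HSP12 averaged 9.98 ± 0.75 against 11.57, a 3.00-fold lower signal (-1.58, standard error 0.60). For both, 1 of 2 arrays at 37C was above background, and the 37C mean did not exceed the background of either array. STF2 averaged 7.53 ± 0.19 against 9.48, with no array above background. In the other direction, GAC1 averaged 10.10 ± 0.31 against 7.62, at least 1.12-fold higher with 1 of 2 arrays above background. RTN2 averaged 11.07 ± 0.27 against 9.45, at least 2.19-fold higher with both arrays above background, and XBP1 averaged 9.78 ± 0.23 against 8.19 with none. The adjusted p from limma was 0.449 for each of these 6 genes.

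Over the 40 members, the median log2 difference between 37C and 25C was -0.30, against -0.17 for all genes. At 37C 17 members were higher and 23 lower. By role the medians were 1.02 for the 3 regulators, -0.35 for trehalose genes, -0.41 for glycogen and glucose phosphate genes, -0.49 for redox and aldehyde genes, -0.76 for small, membrane and wall protein genes and 0.24 for other enzymes. By limma's adjusted p, 0 members were called, as were 0% of all genes. At an unadjusted p under 0.05 there were 8 members (20%), against 10.2% of all genes. Both 37C arrays exceeded the 25C array in 15 members (37.5%), against 31.1% of all genes, and lay under it in 23 (57.5%), against 50.1%.

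The wild type array at 25C belongs to the 3-array set and both at 37C to the 4-array set, so within these arrays temperature and array set cannot be told apart. The mutant arrays of the 3-array set, which were at 37C, can be set beside the 25C array for the 6 members that differed most. On scc2-4 replicate 1 and sth1-3 replicate 1, GAC1 lay 0.51 and 0.37 above the wild type 25C array, RTN2 0.36 and 0.27 above it, XBP1 0.05 and 0.41 above it, and HOR7 -0.52 and 0.38 from it (log2). STF2 lay -1.05 and -0.35 from it and HSP12 0.18 and -0.79. With array set as a term in the fit, the difference between 37C and 25C was 0.95 for GAC1, 0.58 for RTN2, 0.26 for XBP1, -0.92 for HOR7, -1.23 for STF2 and -1.30 for HSP12, and 0 members were called. The set term in that fit rests on the mutant arrays alone and is assumed to hold for wild type. When only the 3 wild type arrays were fitted, 11 members (27.5%) and 911 of all genes (16.7%) were called. Those were HOR7, STF2, HSP12, PGM2, GSY1, GPH1 and SOD2, lower at 37C, and GLC3, XBP1, RTN2 and GAC1, higher (adjusted p from limma 1.1e-07 for GAC1 to 0.044 for SOD2). That fit has 1 residual degree of freedom and gives all genes 1 common spread.

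**Figure D3:**
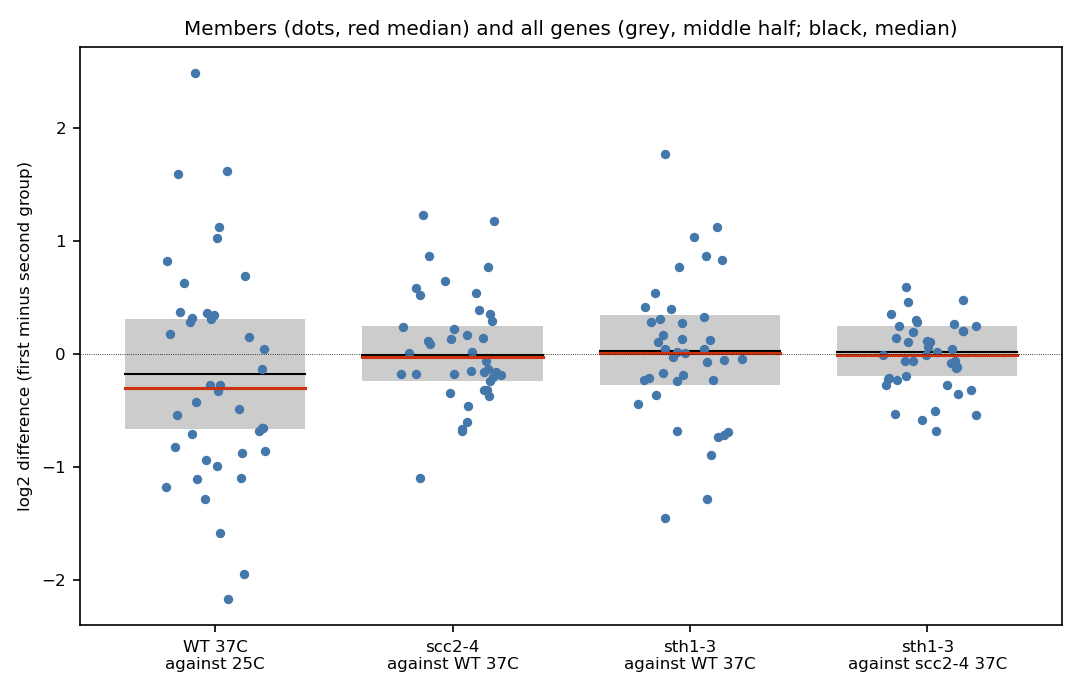
Log2 differences of the 40 members (dots) in 4 comparisons, first group minus second, with the members' median in red, the median of all 5449 genes in black and the middle 50% of all genes in grey. Members scatter around zero in the comparisons with the mutants. Their medians are -0.30, -0.03, 0.01 and -0.01, beside -0.17, -0.01, 0.03 and 0.02 for all genes.

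The second comparison asks how expression differs at 37C when Scc2 is mutant. HSP12, HOR7, SOD2 and ALD4 were higher in scc2-4 than in wild type on both arrays, and GAC1 was lower on both, but no member passed the test. HSP12 averaged 11.21 ± 0.75 in scc2-4 (SD, n = 2) against 9.98 ± 0.75 in wild type, a 2.35-fold higher signal (log2 difference 1.23, standard error 0.49). HOR7 averaged 10.78 ± 0.66 against 9.61 ± 0.87, a 2.26-fold higher signal (1.18, standard error 0.62). In wild type 1 of 2 arrays was above background for either gene. SOD2 averaged 9.85 ± 0.45 against 8.98 ± 0.44, with 1 scc2-4 array above background, and ALD4 averaged 10.43 ± 0.53 against 9.66 ± 0.39, at least 1.32-fold higher. GAC1 averaged 9.01 ± 1.23 against 10.10 ± 0.31, at least 1.11-fold lower. RTN2 averaged 10.39 ± 0.83 against 11.07 ± 0.27, a 1.60-fold lower signal with 1 of 2 scc2-4 arrays above background, and XBP1 averaged 9.13 ± 1.25 against 9.78 ± 0.23. The adjusted p from limma was 0.998 for each of these 7 genes.

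The median over the 40 members was -0.03 in scc2-4 against wild type, beside -0.01 for all genes, with 20 members higher and 20 lower. All 3 regulators and all 4 genes of other enzymes were on the lower side (medians -0.60 and -0.18), and 7 of 10 genes for small, membrane and wall proteins on the higher side (median 0.20). Replicate 1, of the 3-array set, carried these medians, at -1.08, -0.37 and 0.42 from the wild type mean. On scc2-4 replicate 2, in the set of the wild type arrays, they were -0.03, 0.02 and 0.01. Trehalose, glycogen and redox genes were close to evenly divided, with medians of -0.01, 0.01 and 0.09. By limma's adjusted p, 0 members and 0% of all genes were called. At an unadjusted p under 0.05 there were 2 members (5%), HSP12 and SOD2, against 1.25% of all genes. Both scc2-4 arrays exceeded both wild type arrays in 8 members (20%), against 15% of all genes, and lay under both in 5 (12.5%), against 14.1%. The 8 were UGP1, GPH1, ALD3, STF2, ALD4, SOD2, HOR7 and HSP12, and the 5 were GAC1, CTT1, GTT1, SPI1 and NQM1.

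The differences of HSP12 and HOR7 moved with the wild type replicate used. Without wild type 37C replicate 2 the log2 differences in scc2-4 were 0.70 and 0.56, and without wild type 37C replicate 1 they were 1.76 and 1.80. Without scc2-4 replicate 1, of the 3-array set, they were 0.70 and 0.71. The scc2-4 replicate 2 array shares the set of the wild type arrays. On it 0 members differed from the wild type mean by more than 1 log2 unit, against 0.275% of all genes. The differences there ran from -0.51 for GIP2 to 0.71 for HOR7, and SOD2 and ALD4 lay 0.55 and 0.40 above the wild type mean. GAC1 lay at -0.23, RTN2 at -0.09 and XBP1 at 0.23 on that array, so their lower means came from replicate 1.

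The third comparison asks the same of Sth1. HOR7, STF2 and HSP12 were higher in sth1-3 than in wild type at 37C on both arrays, and GAC1, MSN2 and RTN2 lower on both, without passing the test. HOR7 averaged 11.38 ± 1.09 (SD, n = 2) against 9.61 ± 0.87, a 3.41-fold higher signal (log2 difference 1.77, standard error 0.62). HSP12 averaged 11.02 ± 0.35 against 9.98 ± 0.75, a 2.05-fold higher signal (1.04, standard error 0.49). For both, 1 of 2 wild type arrays was above background. STF2 averaged 8.66 ± 0.66 against 7.53 ± 0.19 and MSN2 8.18 ± 0.68 against 9.46 ± 0.29, all below background. GAC1 averaged 8.65 ± 0.94 against 10.10 ± 0.31, at least 1.06-fold lower, and RTN2 10.17 ± 0.64 against 11.07 ± 0.27, a 1.86-fold lower signal with 1 of 2 sth1-3 arrays above background. The adjusted p from limma was 0.824 for each of these 6 genes.

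The median over the members was 0.01 in sth1-3 against wild type, beside 0.03 for all genes, with 21 members higher and 19 lower. By group means the regulators were all on the lower side (median -0.74), and 8 of 10 genes for small, membrane and wall proteins on the higher side (median 0.23). On sth1-3 replicate 1, of the 3-array set, these medians were -1.18 and 0.49 from the wild type mean. On replicate 2, in the set of the wild type arrays, they were -0.29 and 0.14, and MSN4 lay 0.02 above the wild type mean. The medians of trehalose, glycogen, redox and other enzyme genes were -0.14, 0.03, -0.02 and -0.03. By limma's adjusted p, 0 members and 0% of all genes were called. At an unadjusted p under 0.05 there were 5 members (12.5%), namely HOR7, STF2, MSN2, SOD2 and GAC1, against 3.78% of all genes. Both sth1-3 arrays exceeded both wild type arrays in 10 members (25%), against 18% of all genes, and lay under both in 7 (17.5%), against 18.8%. The 10 were TPS1, NTH1, GPH1, PIG2, SOD2, ALD3, ALD4, HSP12, HOR7 and STF2, and the 7 were MSN2, XBP1, TPS2, GAC1, GRE3, RTN2 and PNC1. Both mutants were compared with the same 2 wild type arrays, so these values and those of scc2-4 are not independent of each other.

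On sth1-3 replicate 2, in the set of the wild type arrays, HSP12 lay 1.28 and HOR7 1.00 above the wild type mean. These were the 2 members (5%) beyond 1 log2 unit from that mean, against 1.43% of all genes. SOD2 lay 0.88, ALD4 0.77 and STF2 0.66 above the wild type mean. TPS2 lay at -0.97, GRE3 at -0.85, GIP2 at -0.80, MSN2 at -0.79 and GAC1 at -0.79. Leaving out wild type 37C replicate 2 gave log2 differences in sth1-3 of 0.51 for HSP12 and 1.15 for HOR7, and leaving out replicate 1 gave 1.56 and 2.39. Leaving out any 1 of the 37C arrays called none of the members given on every array, in any comparison (lowest adjusted p = 0.173, limma).

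The mutants were also set against each other. The difference of their means uses no wild type array and has 1 array of each mutant in either set. The standard error and p of this comparison come from the fit over all 7 arrays, so their spread includes that between the wild type replicates. It also includes the difference between the array sets, which cancels in the difference of means if it is the same in both mutants. No member differed between the mutants by more than 1 log2 unit within either set, against 9.62% of all genes in the 3-array set and 0.697% in the other. TPS2 averaged 8.10 ± 0.36 in sth1-3 (SD, n = 2) against 8.68 ± 0.10 in scc2-4, MSN2 8.18 ± 0.68 against 8.86 ± 0.68 and DDR48 8.75 ± 0.11 against 9.28 ± 0.30, all below background. PNC1 averaged 9.46 ± 0.72 against 9.99 ± 0.27. HOR7 averaged 11.38 ± 1.09 against 10.78 ± 0.66, a 1.51-fold higher signal in sth1-3 (log2 difference 0.59, standard error 0.62). With array set as a term in the fit, the standard error for HOR7 was 0.34. STF2 and GSY1 were the next highest, at 8.66 ± 0.66 against 8.18 ± 0.35 and 9.28 ± 1.23 against 8.81 ± 0.62. The adjusted p from limma was 1.00 for each of these 7 genes.

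The median over the members was -0.01 for sth1-3 against scc2-4, beside 0.02 for all genes, with 19 members higher and 21 lower. In the main fit, 0 members and 0% of all genes were called by limma's adjusted p. At an unadjusted p under 0.05 there were 0 members, against 0.385% of all genes. With array set as a term, 0 members and 0 genes were again called by limma's adjusted p. At an unadjusted p under 0.05 there were then 227 genes, against 21 in the main fit. MSN2, below background on all arrays, was the 1 member among them. In that fit the members' standard errors ran only from 0.33 (PIG2) to 0.35 (HSP12). The groups did not overlap in 3 members higher in sth1-3 (7.5%), against 8.44% of all genes, namely PIG2, DDR2 and NQM1. They did not overlap in 4 lower members (10%), against 9.62%, namely TPS2, TSL1, GLC3 and DDR48. In the 3-array and the 4-array set 11 members were higher in sth1-3 both times, 8 were lower both times and 21 went opposite ways. The share with the same sign was 47.5%, against 46.8% of all genes. MSN2 gave nearly the same difference in each (-0.68 and -0.68), as did PIG2 (0.28 and 0.24), whereas HSP12 gave -0.97 and 0.58.

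**Figure D4:**
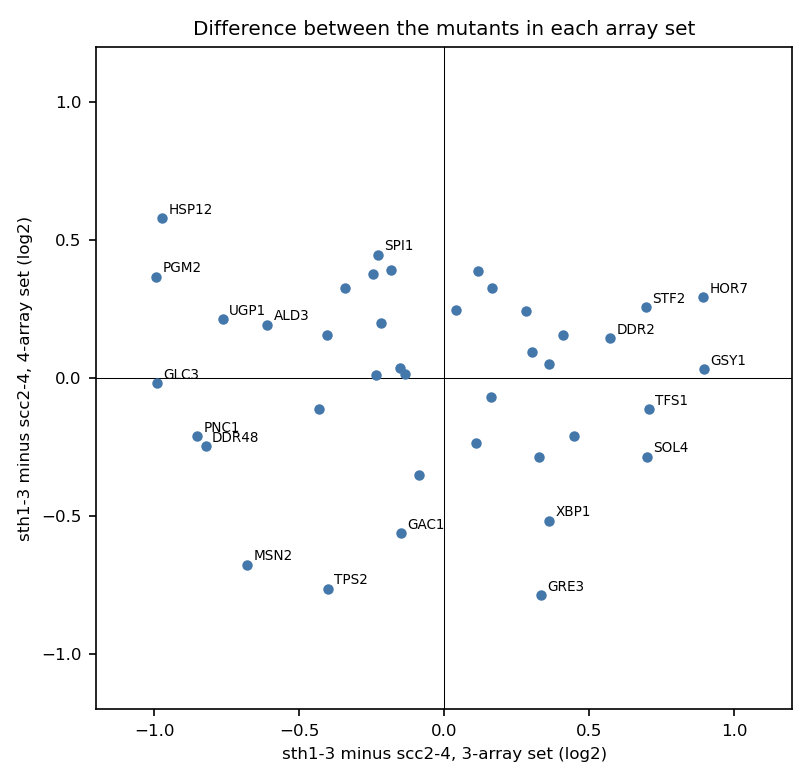
Log2 difference between sth1-3 and scc2-4 for each of the 40 members within the 3-array set (horizontal axis) and the 4-array set (vertical axis), each being 1 array against 1 array. MSN2 lies at -0.68 on both axes, HSP12 at -0.97 and 0.58, and 21 of the 40 points lie in the quadrants of opposite sign.

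Genes that act on Msn2 and Msn4 gave 0 calls in each comparison by limma's adjusted p. The 26 genes of this list that were analysed here cover Ras and protein kinase A, the kinases Rim15, Yak1, Snf1, Hog1, Tor1 and Sch9, and other partners. Of the 26, 7 exceeded background on at least 1 array. In wild type at 37C against 25C, 12 were higher and 14 lower (median -0.15), and the smallest p belonged to RAS2, SOK2 and YAK1, the 3 of 26 with an unadjusted p under 0.05, against 10.2% of all genes. In the other comparisons 0 had one. RAS2, a small GTPase upstream of adenylate cyclase, measured 8.99 and 9.15 against 10.31 (at least 1.22-fold lower), and YAK1, a kinase restrained by protein kinase A, 9.25 and 9.67 against 10.40 (at least 1.30-fold lower). SOK2, a transcription factor that acts with protein kinase A, was below background at both temperatures (9.49 and 9.44 against 8.30). In scc2-4 against wild type, 15 were higher and 11 lower (median 0.07), led by PDE2, SNF1 and TPK2, all below background. In sth1-3 against wild type, 14 were higher and 12 lower (median 0.09), led by SNF1, TPK3 and WHI2. TPK3, a catalytic subunit of protein kinase A, averaged 9.59 ± 0.55 against 10.26 ± 0.15, at least 1.18-fold lower. In sth1-3 against scc2-4, 11 were higher and 15 lower (median -0.08), led by IRA1, TPK3 and PDE1. The adjusted p from limma of the genes named was 0.449, 0.998, 0.824 and 1.00 in the order of the comparisons.

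A further 36 genes, listed as other stress response element genes without a check of their promoters, are not among the 40. They also gave 0 calls in each comparison. Of these, 9 exceeded background on at least 1 array. In wild type at 37C against 25C, 13 were higher and 23 lower (median -0.39, beside -0.17 for all genes), and 7 of the 36 had an unadjusted p under 0.05, against 10.2% of all genes. HSP104, for the disaggregase that rescues heat-damaged proteins, measured 6.83 and 6.71 at 37C against 9.27 at 25C, RGI1 6.92 and 7.14 against 8.19, and USV1, for a transcription factor, 9.01 and 8.56 against 6.54, all below background. The mutant arrays of the 3-array set gave 8.73 and 8.80 for HSP104, between these temperatures, and those of the 4-array set 7.50 and 6.99. In scc2-4 against wild type, 24 were higher and 12 lower (median 0.09), with the smallest p for HSP104, DCS2 and UBI4. UBI4, the polyubiquitin gene, measured 10.00 and 7.93 in scc2-4 against 7.68 and 7.68 in wild type, so that replicate 1 carried the difference. In sth1-3 against wild type, 21 were higher and 15 lower (median 0.04), with the smallest p for YGP1, GLG1 and TRX2. YGP1, for a secreted wall glycoprotein, measured 10.19 and 9.73 in sth1-3 against 8.59 and 8.95 in wild type, and was the 1 gene of the 36 with an unadjusted p under 0.05 there, against 3.78% of all genes. In sth1-3 against scc2-4, 15 were higher and 21 lower (median -0.14), with the smallest p for YGP1, TKL2 and HSP42. The adjusted p from limma of the genes named was again 0.449, 0.998, 0.824 and 1.00.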

How the data were processed

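The deposited values are log2 signals, 1 per probe set and array, which the authors made with RMA and the affy package, per the submitters' processing notes, with no versions. The 7 columns do not have equal distributions (medians spread over 0.12), and whether they were processed together is not stated. Depth has no counterpart on arrays, and their number limits the precision.

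Of 10928 probe sets, 5498 named 1 S. cerevisiae gene and 1746 an S. pombe gene. The brightest probe set stood for a gene (5449 genes). Symbols follow S. cerevisiae R64.

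Groups come from the titles. The protocol text of the 25C sample also describes the shift to 37C. limma 3.58.1 in R 4.3.3 fitted 1 mean per group over all 7 arrays (3 residual degrees of freedom), two-sided, with Benjamini-Hochberg adjustment over all genes and a threshold of 0.05. No label says that replicates were separate cultures, so p-values may measure technical spread. The 2 arrays of either mutant lie in different array sets, so the spread in the main fit includes the difference between the sets. Between replicates, 14.2% of genes in scc2-4 and 19.4% in sth1-3 differed by more than 1 log2 unit. For the wild type 37C arrays, which share a set, the share was 3.01%. A lack of calls in the main fit is to be read with that spread. The procedure was run on simulated data for scc2-4 against wild type, with independent noise and no difference between array sets. That run cannot show how the procedure behaves when arrays split into sets as here. No pair of arrays was identical.

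The members, lists and alternatives were chosen with earlier results of these data known. Members above background on at least 1 array, with HSP12, CTT1, MSN2 and MSN4, are given on every array. In each comparison the 3 members with the smallest p, the 3 highest and the 3 lowest are named, and the 3 smallest p of each further list. Genes in counts of groups that do not overlap, and those singled out within array sets, were named after their values were seen. The listed LAP4 is APE1 in R64.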

Additional observations from a re-analysis of the deposited data

How the results depend on the processing

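In 69 of 70 alternative fits 0 members were called, the exception being the 11 members of the fit on the 3 wild type arrays alone, where 911 genes were called in all. With array set as a term, the genes called were 4, 7 and 10 for temperature, scc2-4 and sth1-3, none a member, and 0 between the mutants. The members' median for temperature was then 0.041. Within the 4-array set the counts were 6 for scc2-4, 13 for sth1-3 and 1 between the mutants. There each mutant is 1 array, assumed to vary like the 2 wild type arrays, which alone give the spread. With the replicate number as a block over the 6 arrays at 37C, 1 gene was called in scc2-4 and 1 in sth1-3, and 0 members, so the block changed no member's call. Same-numbered arrays had deviations from their group means that correlated at -0.20, -0.36 and 0.55 across genes, so the numbers were not taken as pairs. Over the 13 members above background on at least 2 arrays, the medians were -0.65, 0.14, 0.31 and -0.11 in the order of the comparisons, a value over fewer and brighter genes. Over all genes that passed the same filter they were -0.16, 0.04, 0.02 and 0.01. Genes can pass this filter through the groups where they are high, so these medians are not a test of a change. With arrays centred on the S. cerevisiae median, which takes out the shift of all genes by -0.17, the median for temperature was -0.12. Leaving out 1 array at a time gave medians of -0.37 to -0.11 for temperature, -0.17 to 0.14 for scc2-4, -0.13 to 0.16 for sth1-3 and -0.068 to 0.15 between the mutants. It gave 0 to 1 genes called for temperature (1 without scc2-4 replicate 1 and 1 without scc2-4 replicate 2) and for scc2-4 (1 without scc2-4 replicate 2). With the 99th percentile as background 6 members exceeded it, and 22 with the 90th. Over the members given on every array, 73 of 1132 alternative values had the opposite sign, and none of the 1132 was called. The fit on the compared groups alone leaves these values as they are and is not in that count. Its calls on the 3 wild type arrays, given above, are therefore not in that count either. Several alternatives that are in it, such as the mean of probe sets, cannot change a member's value. Fewer than 1132 values were therefore free to change sign. The remaining alternatives (trend and robust eBayes, quantile and S. pombe scaling, the mean of probe sets, shared probe sets left out) kept 0 calls. Centring on the S. pombe median moved the median of all genes to -0.28, 0.12 and 0.11 in the first 3 comparisons. Low signal over background limits every fold.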
